A study of Mus musculus with 34 samples.

Results

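In mouse hippocampal microglia, H3K9me3 was called at 34967 merged genome regions in at least 1 of 3 broad-peak lists of growth-restricted animals (FGR), and 6523 of these regions (18.7%) held a peak in all 3 lists. These 6523 shared regions are described here. They were chosen by merging overlapping or touching peaks of FGR replicates 1, 2 and 3 and keeping each merged region that had a peak in every list. They covered 9.87 Mb, which was 40.0% of all merged bases. A further 6763 regions had a peak in 2 of the lists and 21681 in 1 of them.

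The series used ULI-NChIP-seq, an immunoprecipitation of native, unfixed chromatin made for very small numbers of cells, on H3K4me3, H3K9ac, H3K27ac and H3K9me3. Both the control group (Ctrl) and the FGR group carried the Tmem119-tdTomato+/- reporter, which labels microglia, and their labels give an age of 3 weeks after birth for replicates 1 to 3 and none for replicate 4. FGR is the group name in the labels, the title speaks of intrauterine growth restriction, and no source used here says how it was brought about. Each mark had 4 libraries per group, and no label says that replicates came from separate animals, so each p-value reflects the spread among these libraries alone, possibly a technical one. The deposited lists give no read counts, so sequencing depth is unknown. Among genes that mark microglia, 14 of 14 had H3K27ac near the start in all 4 libraries of each group, and 12 of 12 neuronal markers had none in any library. H3K27ac in all 4 libraries of each group was also found at 3 of 7 endothelial and mural markers, 2 of 9 of the oligodendrocyte lineage, 2 of 6 of border-associated macrophages and 1 of 7 of astrocytes, and at 0 of 7 of lymphocytes and neutrophils. H3K4me3 in all 4 libraries was found at 0 neuronal and 2 endothelial and mural markers in Ctrl and at 3 and 6 in FGR. The part of other cells in the results was not tested.

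H3K9me3 is the trimethyl mark of constitutive heterochromatin. Methyltransferases such as Setdb1 and Suv39h1 write it, HP1 proteins bind it, and it keeps satellite repeats, endogenous retroviruses and some germline genes silent. Clusters of genes for KRAB zinc finger proteins, which themselves guide Setdb1 to retroviral sequences, are known to carry it. H3K9ac occupies the same lysine and marks active promoters and enhancers, so a single lysine cannot carry both at once.

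One set of libraries stood apart in a way that touches the results on H3K9ac. Of the peaks in the 4 libraries labelled FGR H3K9ac, 5.26%, 4.89%, 4.79% and 8.18% lay in the shared H3K9me3 regions, against 0.077%, 0.0814%, 0.0796% and 0.0947% in the 4 libraries labelled Ctrl H3K9ac. All 4 FGR libraries differed in this way, so no value of that group can be given without them. Whether they hold the mark of their label was not tested. The H3K9me3 lists also differed in their threshold. The FGR broad lists held 18029, 15522 and 22903 peaks and ended at −log10 q values of 1.03, 1.05 and 1.01. The Ctrl broad lists held 492938, 450311 and 345501 peaks and reached down to a −log10 q of 0, so the H3K9me3 values of both groups are given as descriptions without a test.

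Sequence was read only at promoters, which few of the shared regions reach, and the sequences of the other regions were not analysed here. RefSeq promoter sequences (GRCm38.p6, the assembly behind mm10) were matched by position, and 66 promoters of 64 genes had all 250 bases before the start inside shared regions, 17 of them in each of the 3 lists separately. Of these 17, 5 are printed because they stand for the germline genes, the zinc finger clusters, a repeated gene and the promoters that also carried H3K9ac peaks in FGR. Each runs 5′ to 3′ on the strand of the gene, with CG dinucleotides, the sites of DNA methylation, in capitals.

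Dazl, chr17:50293621-50293870, minus strand: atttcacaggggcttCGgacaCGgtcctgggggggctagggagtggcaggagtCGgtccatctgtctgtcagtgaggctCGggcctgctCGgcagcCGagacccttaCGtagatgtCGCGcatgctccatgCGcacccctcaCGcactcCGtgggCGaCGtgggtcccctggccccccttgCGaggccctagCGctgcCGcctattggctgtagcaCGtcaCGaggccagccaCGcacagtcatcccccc
Zfp981, chr4:146514670-146514919, plus strand: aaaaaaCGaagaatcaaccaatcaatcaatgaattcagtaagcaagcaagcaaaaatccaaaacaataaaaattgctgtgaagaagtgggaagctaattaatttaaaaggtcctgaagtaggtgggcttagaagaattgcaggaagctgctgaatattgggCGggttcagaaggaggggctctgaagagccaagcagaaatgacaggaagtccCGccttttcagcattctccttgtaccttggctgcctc
Zfp988, chr4:147305354-147305603, plus strand: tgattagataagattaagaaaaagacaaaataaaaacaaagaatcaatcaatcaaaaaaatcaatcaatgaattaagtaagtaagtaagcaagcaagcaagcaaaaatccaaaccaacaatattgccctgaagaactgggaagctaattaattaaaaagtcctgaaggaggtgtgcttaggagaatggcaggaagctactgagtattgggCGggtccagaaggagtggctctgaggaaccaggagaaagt
Duxf3, chr10:58233090-58233339, minus strand: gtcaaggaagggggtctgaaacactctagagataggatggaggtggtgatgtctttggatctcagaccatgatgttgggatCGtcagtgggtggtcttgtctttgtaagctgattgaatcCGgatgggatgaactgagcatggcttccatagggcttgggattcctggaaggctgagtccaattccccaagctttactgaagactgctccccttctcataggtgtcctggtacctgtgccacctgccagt
Gm45988, chr7:64130624-64130873, plus strand: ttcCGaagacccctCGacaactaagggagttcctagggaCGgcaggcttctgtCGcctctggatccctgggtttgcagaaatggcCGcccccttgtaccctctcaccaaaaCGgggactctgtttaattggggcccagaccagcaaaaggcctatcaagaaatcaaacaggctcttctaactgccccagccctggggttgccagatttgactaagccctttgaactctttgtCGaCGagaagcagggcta

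The promoter of Dazl, an RNA-binding protein of germ cells, held 20 CG dinucleotides, a number that 17.9% of all 32851 promoters reach. Those of Zfp981 and Zfp988, both in the zinc finger cluster of chromosome 4, held 3 and 1, and that of Duxf3, a double homeobox gene of a tandem array, held 2. The predicted gene Gm45988 held 8. Across the 66 promoters the median was 7.0 CG dinucleotides, against 6.0 over all promoters, and 37.9% had 10 or more, against 37.8%. The counts ran from 0 to 34. The motif TGCCGC, searched on both strands in the 250 bases, was in 12.1% of the 66 and in 8.68% of all promoters, and CACGTG, which reads alike on both strands, in 1.52% and 6.02%. Of the 66, 17 were on chromosome 12 and 10 on chromosome 4.

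The regions kept by the rule were wider and stronger than the rest, which the rule itself favours. Their width ran from 214 to 23282 bp with a median of 1209 bp and quartiles of 798 and 1850 bp, against medians of 681 bp for regions in 2 lists and 372 bp for regions in 1 list. There were 127 regions of 5 kb or more among them and 0 among the others. Peaks inside them had median −log10 q values of 1.78, 2.03 and 1.84 in replicates 1, 2 and 3, and median fold enrichments of 3.49, 3.52 and 3.43 in the authors' deposited values. The 5 members closest to the threshold had a lowest −log10 q of 1.03 to 1.05 in one of the lists. Just outside it, a 212 bp region on chromosome 1, 64.7 kb from Cr2, reached 10.5 in replicate 1 and 11.5 in replicate 2 and had no peak in replicate 3.

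Among the 10 longest shared regions were 2 on an unplaced contig, 2 near the start of chromosome 9 and 2 in filaggrin genes. The 2 longest, of 23282 and 21766 bp, were both on the unplaced contig JH584304. On chromosome 9, regions of 14930 bp (chr9:3023363-3038292) and 12857 bp (chr9:3006227-3019083) lay near the centromeric end, with Mir101c as the nearest annotated gene. These contig and chromosome 9 regions were not particular to H3K9me3. They also held H3K4me3 and H3K27ac peaks in every library of both groups, with 6029 to 8605 bp of Ctrl H3K4me3 in the 14930 bp region. Their H3K9me3 fold enrichments were 1.63 to 2.02, below the medians of 3.49, 3.52 and 3.43 in shared regions. Flg2 and Flg, which encode filaggrin proteins of the outer skin layer built from long internal repeats, held regions of 13331 bp (chr3:93203042-93216372) and 12923 bp (chr3:93280214-93293136). Sfi1, a centrosome gene with many copies in the mouse genome, held one of 12467 bp (chr11:3187553-3200019). The remaining 3 of the 10 longest were chrX:170009839-170020735, 19 kb from Mid1, chrX:135045819-135056280, 36.6 kb from Zmat1, and chr3:6297404-6307826, 308 kb from 1700008P02Rik.

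The 5 regions with the highest −log10 q were shorter. The strongest, chr17:13550663-13553155, was 2493 bp wide, 163 kb from Tcte2, and had −log10 q values of 25.8, 22.1 and 25.9. The others lay within Gm525 on chromosome 11 (351 bp), 34.6 kb from Zfp825 on chromosome 13 (2279 bp), within Zc3h7a on chromosome 16 (268 bp) and within Smo on chromosome 6 (1208 bp). All 5 were also called in FGR replicate 4, at −log10 q values of 38.6, 44.7, 53.9, 37.4 and 62.8.

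Shared regions were unevenly spread over the chromosomes. Chromosomes 4, 12 and 7 held most, with 5.95, 5.72 and 5.60 kb of shared regions per Mb, and chromosomes 19, X and Y held fewest, with 2.22, 2.13 and 0.643 kb per Mb, against 3.62 kb per Mb over all sequences. Contigs that are not placed on a chromosome had 98 regions, or 60.2 kb per Mb of contig, and the mitochondrial genome had 1. Of 2732 windows of 1 Mb, 2062 (75.5%) held at least 1 region, and the 15 fullest held 10.9% of the shared bases on the chromosomes.

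**Figure D1:**
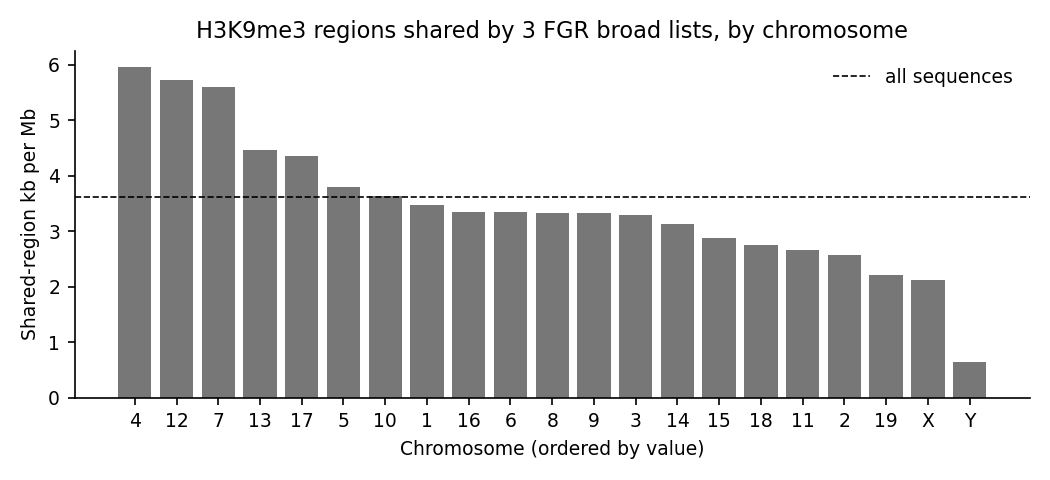
Bars give kb of shared H3K9me3 regions per Mb for each mouse chromosome, ordered from high to low, and the dashed line the value over all sequences (3.62). Chromosomes 4, 12 and 7 stand above 5 kb per Mb and the Y chromosome lies lowest at 0.643.

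The fullest windows differed in what they hold. Several contained clusters of related genes, and others, such as those on chromosome X and at the start of chromosome 9, held 1 to 3 coding genes. On chromosome 4, from 146000001 to 148000000, 141 regions covered 264.8 kb, or 13.2% of the segment, and 12 of its 14 Zfp genes had a shared region in the gene body. On chromosome 17, from 13000001 to 14000000, 42 regions covered 108.9 kb around Tcp10c, Smok2a and Smok2b, genes of the t-complex expressed in testis. On chromosome 12, segments from 19000001 to 21000000 and from 22000001 to 24000000 held 65 and 55 regions among predicted genes. On chromosome 7, from 20000001 to 23000000, 85 regions lay between the vomeronasal receptor genes, and 0 of the 65 receptor genes there had one in its body. A segment of chromosome 1, from 85000001 to 86000000, held 40 regions around Sp110, Sp140 and Sp100, genes of nuclear body proteins.

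The Snrpn segment of chromosome 7, from 59000001 to 60000000, is an imprinted locus whose small nucleolar RNA genes stand in tandem. It held 26 shared regions, and the 19 small nucleolar RNA genes under shared regions, Snord116l7, Snord116l15, Snord116l16 and Snord116l17 among them, were 1.42% of the 1340 annotated, beside the 3.14% of all annotated genes with a shared region. Such genes are short, and by bases the order was the opposite. Of the bases of small nucleolar RNA genes, 1.03% lay under shared regions, against 0.251% over all annotated genes. Of the other imprinted genes listed, none had a shared region in its body, so that the count was 1 of 42 (2.38%), Snrpn alone. A group of 5 transfer RNA genes near chr1:171064164-171066701 also overlapped shared regions.

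Genes held fewer shared regions than their share of the genome. Of the 6523 regions, 1545 (23.7%) overlapped the body of a protein-coding gene, and 22.2% of the shared bases lay there, while such bodies make up 37.8% of the genome. Within 2.5 kb of a coding start lay 2.61% of the regions. Of the regions on chromosomes, 34.9% were more than 100 kb from any coding gene, against 30.8% and 27.5% of the regions in 2 lists and in 1 list. Annotated pseudogenes had 1.44% of their bases under shared regions, protein-coding genes 0.219%.

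A total of 1012 of 21887 protein-coding genes (4.62%) had a shared region in the body, and 836 of these (82.6%) also had an FGR replicate 4 peak in the body, as did 1505 of all 21887. Their median length was 139 kb, against 17.2 kb for all coding genes, so long genes were hit more often. Zinc finger genes were hit in 41 of 428 cases (9.58%), and 1.63% of their bases lay under shared regions. Examples are Zfp992 with 32.1% of its body, Zfp978 with 28.6% (76.4 kb), Zfp981 with 27.5% and Zfp518b with 23.9%. Single lists covered less of Zfp518b, with 2.34%, 16.5% and 15.7% in replicates 1 to 3 and 0% in replicate 4. The UDP-glucuronosyltransferases, enzymes that conjugate drugs and bilirubin, came to 9 of 22 (40.9%), but the Ugt1a genes share their last exons, and Ugt1a1, Ugt1a2, Ugt1a5 and Ugt1a6a all overlap the same 2.45 kb. The 7 of 57 clustered protocadherins likewise overlap one another. Olfactory receptors were hit in 4 of 1110 cases (0.36%) and vomeronasal receptors in 8 of 355 (2.25%), with Vmn1r48 (24.9% of the body) and Vmn2r35 (14.8%) the most covered. By bases, which depend less on gene length, the shares were 0.154% and 0.353%, against 0.219% over all protein-coding genes. Vomeronasal receptors thus lay below all coding genes by hits and above them by bases. At Vmn1r48 that stretch was under a peak in replicate 3 alone, with 0% of the body covered in the other FGR lists, since a merged region can reach beyond the peaks of single lists. Of 39 Hox genes, 67 histone cluster genes, 33 Rhox genes and 112 keratin genes, 0 were hit. These shares are descriptions of the regions and have no test.

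**Figure D2:**
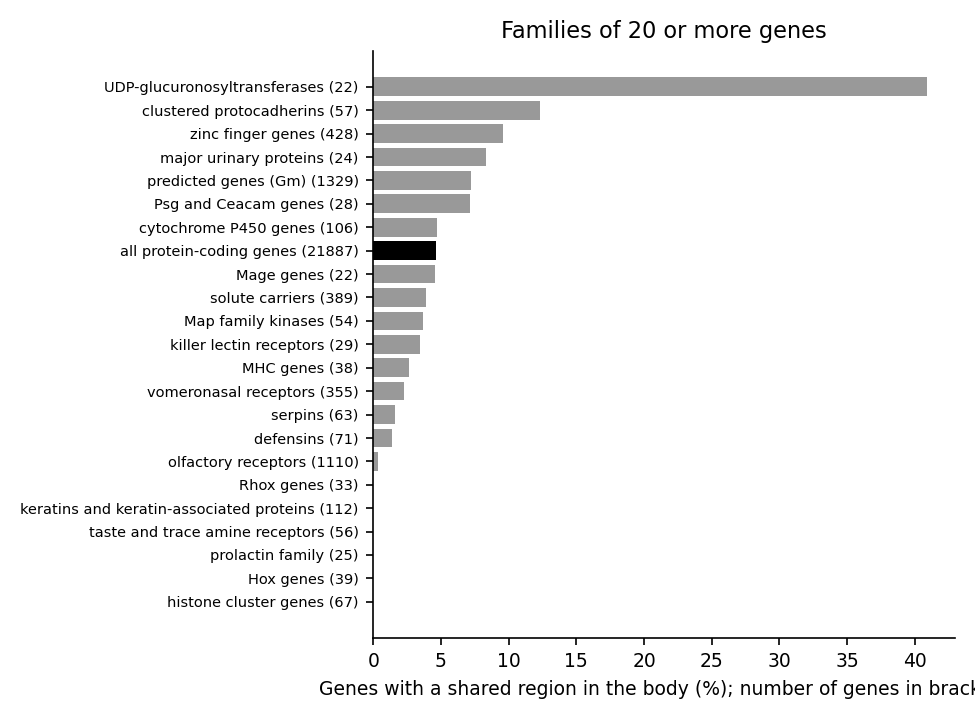
Bars give the percent of genes with a shared H3K9me3 region in the body, for families of 20 or more genes and for all protein-coding genes (black, 4.62%). UDP-glucuronosyltransferases reach 40.9% through regions that overlapping genes share, zinc finger genes 9.58%, and olfactory receptors 0.36%. The bars take no account of gene length. By bases, olfactory receptors had 0.154%, vomeronasal receptors 0.353% and all protein-coding genes 0.219%.

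Smaller lists gave few members. Germline genes were hit in 3 of 20 cases (15%): Dazl, Mov10l1, which acts in the piRNA pathway, and Sycp1, a part of the synaptonemal complex. By bases their share was 0.195%, against 0.219% over all protein-coding genes, so it was not raised. Mov10l1 and Sycp1 are 72.3 and 118 kb long, had 0.641% and 0.501% of the body covered, and had 0 shared bases near the start. FGR replicate 4 H3K9me3 covered 0% of the body of Dazl and 0 bases of its printed promoter. Within 2.5 kb of its start, Dazl had 0.797 to 0.927 kb of H3K9ac in Ctrl and 0.923 to 1.191 kb in FGR. There H3K27ac was 0.763 to 0.932 kb in Ctrl and 0 to 0.601 kb in FGR, and H3K4me3 0 kb in Ctrl and 0.8 to 0.997 kb in FGR. Of 23 genes of the H3K9 methylation machinery, 0 were hit, and of 14 microglial markers, 0. The neuronal marker Rbfox3 had 0.569% of its body under shared regions, and Mrc1, a marker of border-associated macrophages, 0.748%.

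Ranked by the percent of the body covered, the 10 leading genes of at least 2 kb were Duxf3 and 9 predicted genes, from 100% for Gm52606, Gm52796, LOC100504180 and LOC115488029 to 89.8% for Gm52666. Duxf3 (chr10:58229505-58233089), from the family whose founding member activates genes of the early embryo, had 92.6% of its body under shared regions. By replicate, FGR peaks covered 69.7%, 75.5%, 82.9% and, in the narrow list of replicate 4, 44.4% of Duxf3, and Ctrl broad peaks 48.1%, 18.3% and 62.2%. For Flg2 the same values were 52.6%, 55%, 61.7% and 27.2% in FGR and 39.3%, 56.1% and 39.7% in Ctrl. For Zfp992 they were 26.0%, 22.6%, 33.3% and 7.40% in FGR and 93.3%, 92.6% and 95.9% in Ctrl. Ctrl coverage of other Zfp genes was lower, with 76.5%, 77.9% and 76.6% at Zfp981 and 29.1%, 32.8% and 39.4% at Zfp518b. The predicted gene Gm52481, at the distal end of the Y chromosome, had 93.8%, 93.4%, 93.2% and 82.8% in FGR and 0% in each Ctrl broad list. The Ctrl broad lists reach down to a −log10 q of 0 and cover 17.6%, 15.6% and 10.6% of the genome. The FGR broad lists end at 1.03, 1.05 and 1.01 and cover 0.427%, 0.37% and 0.562%. A gene's shares in Ctrl and FGR therefore cannot be read as a difference between the groups. How reads that match several copies of a gene were placed is not given in the sources used here, and its part in these values was not tested.

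FGR replicate 4, a narrow list of 11204 peaks that the rule did not use, allowed the regions to be looked up in a library of their own group. It had a peak in 4398 of the 6523 shared regions (67.4%), in 27.7% of the regions in 2 lists and in 7.56% of the regions in 1 list. It covered 26.2% of the shared bases and 0.156% of the genome, a ratio of 168. Of its own peaks, 54.0% lay in shared regions and 14.3% in no region of the 3 broad lists. The order held within each class of width, and among regions of 500 to 1000 bp the shares were 57.2%, 26.9% and 8.27% for 3, 2 and 1 lists. With the shared regions ranked by median −log10 q and split into 4 equal groups, the share with a replicate 4 peak was 46.2%, 63.6%, 74.7% and 85.2% from the lowest group to the highest, and these groups had median widths of 1089, 1242, 1314 and 1226 bp. With 1 library there is no test.

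**Figure D3:**
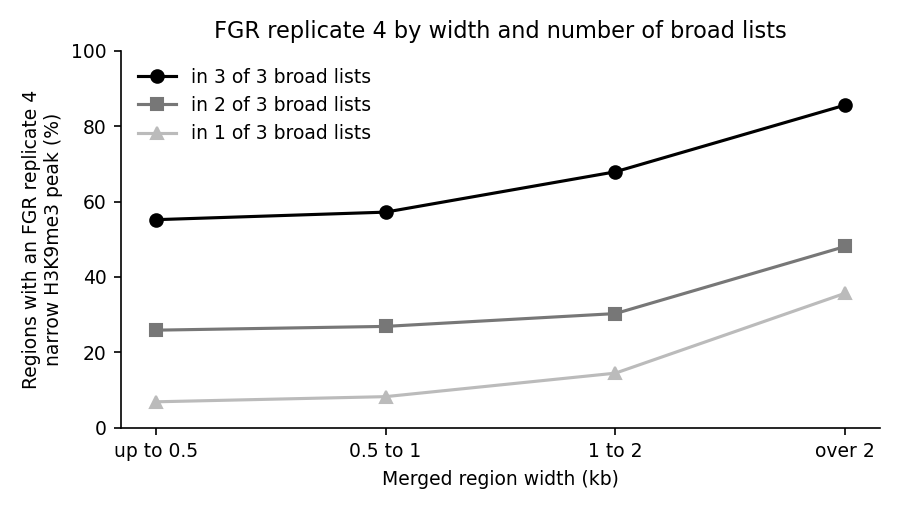
Lines join, for regions in 3, 2 or 1 of the FGR broad lists, the percent of regions with a narrow H3K9me3 peak in FGR replicate 4 against 4 classes of region width in kb. In the widest class the values are 85.6%, 48.1% and 35.7%, and the order of the lines is the same in all 4 classes.

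The Ctrl broad lists as deposited had a peak in 79.5%, 83.9% and 80.3% of the shared regions. They covered 46.9%, 53.1% and 48.8% of the shared bases, while covering 17.6%, 15.6% and 10.6% of the genome, ratios of 2.66, 3.4 and 4.62. The regions in 1 FGR list had ratios of 3.17, 3.79 and 4.85, so at the deposited threshold shared regions did not stand above the others. When each Ctrl list was reduced to its 18029 peaks of highest −log10 p, as many as in the middle FGR list, the ratios were 16, 14 and 11.8 in shared regions and 9.54, 7.71 and 7.55 in regions of 1 list. At that length 18.3%, 12.9% and 8.42% of the shared regions held a Ctrl peak. At a −log10 q of at least 1, near where the FGR broad lists end, the Ctrl lists kept 103, 97 and 93 peaks. Those peaks reached 36, 35 and 43 of the shared regions (0.552%, 0.537% and 0.659%). Most overlap with the Ctrl lists as deposited thus rested on peaks below that threshold.

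At the deposited threshold, all 3 Ctrl broad lists had a peak in 4206 shared regions (64.5%), and 322 (4.94%) had one in none. Those 322 were short, with a median of 753 bp against 1456 bp. Zc3h7a (268 bp, within the gene), Adgre5 (250 bp, 15.5 kb away), Cmss1 (417 bp, within), Axin2 (401 bp, 60.9 kb away) and Jarid2 (674 bp) were the nearest genes of the 5 strongest of them, which were named after their values were seen. All 5 also held H3K9ac peaks in every FGR library. FGR H3K4me3 was present in every library at Zc3h7a, Adgre5 and Axin2 and in some at Cmss1 and Jarid2. FGR H3K27ac was present in every library at Zc3h7a, in some at Adgre5, Cmss1 and Axin2, and in none at Jarid2. In Ctrl, H3K9ac and H3K4me3 were at 0 bp there, and H3K27ac was present in replicate 3 alone, at Cmss1 and Axin2. The narrow list of Ctrl replicate 4 had 257 peaks in all, and 135 of these (52.5%) fell in 52 of the shared regions. At the end of the X chromosome, from 170000001 to 171000000, 19 shared regions had only 7.48%, 17.3% and 18% of their bases under Ctrl broad peaks, the lowest of the 10 fullest segments, while the chromosome 4 segment had 80.6%, 83.3% and 79.6%.

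Around the centre of the shared regions the Ctrl broad peaks formed 2 shoulders. Ctrl replicates 1, 2 and 3 covered 41.0%, 47.8% and 43.2% of the centres and rose to 60.6%, 61.5% and 53.3% at 1.3, 1.2 and 1.1 kb from them. FGR replicate 4 instead was highest at the centre, with 34.4%, and stood at 2.46% and 2.73% at 5 kb on either side. The centres are those of regions defined on FGR lists, so that a dip in Ctrl is a description only.

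Of the other marks, H3K9ac differed most in these regions. In Ctrl, 32, 35, 35 and 33 of the 6523 shared regions held an H3K9ac peak, which is 0.491%, 0.537%, 0.537% and 0.506%. In the libraries labelled FGR H3K9ac, 3377, 3465, 2850 and 3606 did, which is 51.8%, 53.1%, 43.7% and 55.3%. The groups did not overlap, and a shared region was thus more often called than not in 3 of the 4 FGR lists. Peaks covered 0.131, 0.129, 0.131 and 0.146 times as much of the shared regions as of the genome in Ctrl, and 14, 13.1, 11.8 and 21.9 times as much in FGR. The log2 of this density was −2.90 ± 0.08 in Ctrl and 3.88 ± 0.40 in FGR (SD, n = 4 each), a difference of 6.78 with a standard error of 0.20, or 109.9-fold. The two-sided exact permutation test over libraries gave p = 0.0286, the smallest that 4 against 4 allows, and the adjusted value over the 3 marks was also 0.0286.

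**Figure D4:**
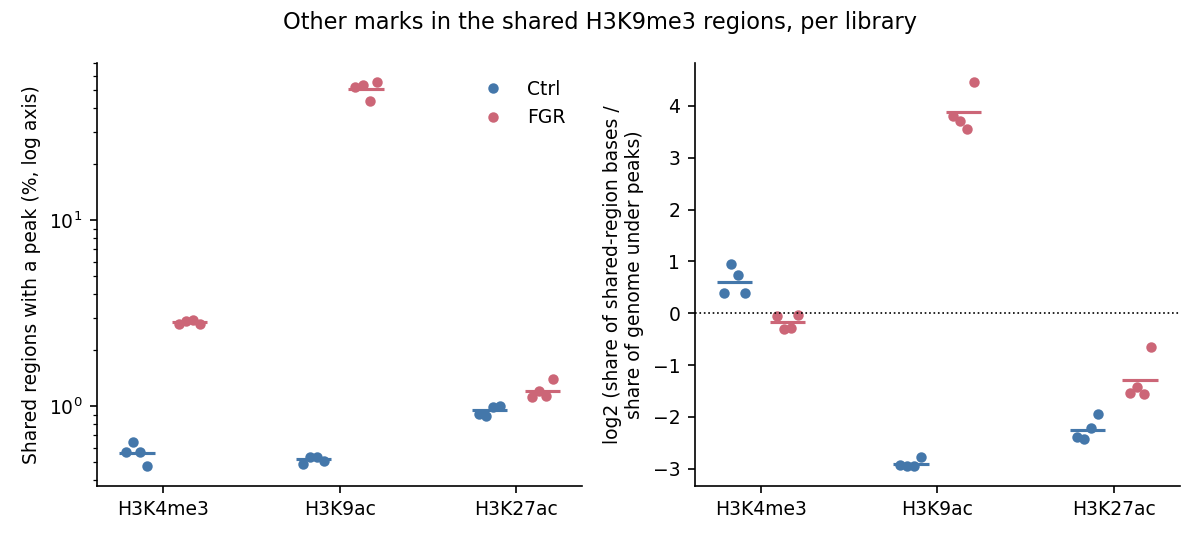
Points are libraries (blue Ctrl, red FGR) and short lines group means. The left panel gives the percent of shared regions with a peak on a log axis, and the right panel the log2 density of peaks in shared regions relative to the genome, with 0 (dotted) for equal density. For H3K9ac the FGR libraries lie between 43.7% and 55.3% and the Ctrl libraries between 0.491% and 0.537%.

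Over all regions called for H3K9ac in any library, 6.32% of 151724 had a peak in all 4 FGR lists and in no Ctrl list. Within the shared H3K9me3 regions this held for 45.7% of 5226 H3K9ac regions. Counted the other way, 2387 (24.9%) of the 9586 such H3K9ac regions overlapped a shared region. The opposite pattern, all 4 Ctrl lists and no FGR list, held for 3.34% of H3K9ac regions overall and for 0.0383% within shared regions. Of the shared regions themselves, 2374 (36.4%) had an H3K9ac peak in all 4 FGR lists, 2330 (35.7%) in none of them and 1819 in 1 to 3.

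FGR H3K9ac was denser in regions found in more of the H3K9me3 lists. The FGR H3K9ac density ratio was 5.84, 5.54, 4.61 and 9.12 in regions of 2 lists and 1.75, 1.74, 1.35 and 2.78 in regions of 1 list. FGR replicate 4 H3K9me3 peaks inside shared regions carried an FGR H3K9ac peak in 51.1%, 51.9%, 42.3% and 55.4% of cases. Those in no broad-list region did so in 6.49%, 7.74%, 4.37% and 7.68%. Of the 18029 Ctrl H3K9me3 peaks of highest −log10 p per list, those outside all FGR regions did so in 0.14% to 0.459% of cases over the 3 Ctrl lists and 4 FGR libraries. These Ctrl sets of 18029 had median −log10 q values of 0.0565, 0.0517 and 0.0538, against 3.65 for the FGR replicate 4 list. Most of the Ctrl peaks were thus weak calls, and the shares are not at a like threshold. At the centre of the shared regions, FGR H3K9ac peaks covered 35.4%, 36.4%, 27.5% and 39.7%, against 1.70% to 3.48% at 5 kb from it.

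**Figure D5:**
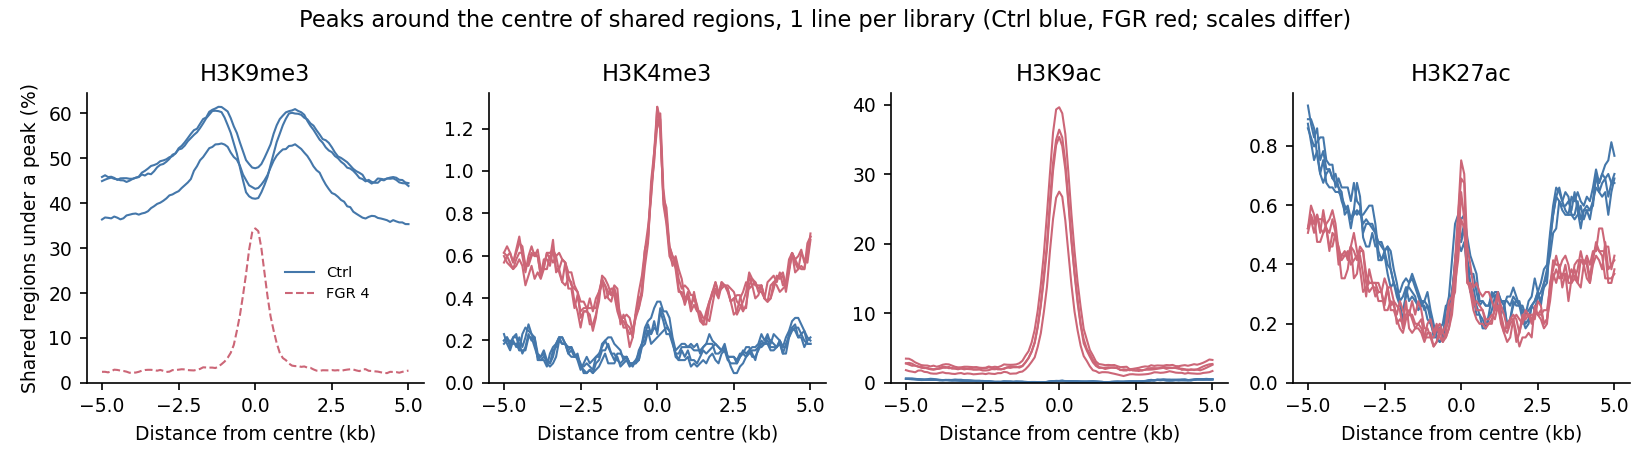
Each line is 1 library and gives the percent of the 6523 shared regions under a peak (y axis, scales differ between panels) against distance from the region's centre in kb. FGR H3K9ac and FGR replicate 4 H3K9me3 peak at the centre (27.5% to 39.7%, and 34.4%), and the 3 Ctrl H3K9me3 broad lists are highest 1.1 to 1.3 kb away from it. The 3 FGR broad lists that define the regions are not drawn.

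Shared regions with and without FGR H3K9ac differed in other readouts as well. Those with a peak in all 4 FGR lists had an FGR replicate 4 H3K9me3 peak in 84.7% of cases and had 35.5%, 42.6% and 38.5% of their bases under the Ctrl H3K9me3 lists. Those with none had 49.7%, and 60.3%, 66.2% and 62.0%. Median widths were 1302 and 1132 bp. The regions with H3K9ac in all 4 lists also lay farther from coding genes, at a median of 110.0 kb against 48.5 kb for those outside gene bodies. These are descriptions over regions, which share libraries and are not replicates.

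By chromosome, the share of shared regions with H3K9ac in all 4 FGR lists was highest on X, with 132 of 244 (54.1%), and lowest on chromosome 4, with 158 of 610 (25.9%), and on the unplaced contigs, with 16.2%. In the Zfp segment of chromosome 4, 7 of 141 regions (4.96%) had H3K9ac in all 4 lists. The share was 4.62% and 1.82% in the chromosome 12 segments, 2.5% at Sp110, Sp140 and Sp100, 7.69% at Snrpn, 10.6% among the Vmn1r genes and 11.9% around Tcp10c. It was higher in the other 3 of the 10 fullest segments, with 31.6% on X, 34.6% on chromosome 8 and 57.1% (4 of 7 regions) on chromosome 9, beside 36.4% over all shared regions. The chromosome 9 segment includes the long regions with H3K4me3 and H3K27ac peaks in every library of both groups. At single regions, the 4 FGR H3K9ac libraries covered all 2493 bp of the strongest region, near Tcte2, and all 351 bp of that in Gm525. At the 12923 bp region of Flg they covered 5473, 4047, 3130 and 5250 bp, and at that of Flg2 269, 915, 489 and 585 bp. In these 4 regions the Ctrl H3K9ac libraries had 0 bp. Of the printed promoters, Gm45988 was covered for 250, 135, 236 and 250 of its 250 bases by FGR H3K9ac, Dazl for 110 bases in replicate 1 only, and Zfp981, Zfp988 and Duxf3 for 0.

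H3K4me3, the mark of active promoters, was rare in the shared regions. In Ctrl, 0.567%, 0.644%, 0.567% and 0.475% of the regions held a peak, and in FGR 2.77%, 2.88%, 2.91% and 2.77%. The FGR lists were also longer, and relative to the genome the density was lower in FGR, with a log2 of −0.16 ± 0.15 against 0.61 ± 0.28 in Ctrl (SD, n = 4 each). The difference of −0.77 had an exact permutation p of 0.0286. It rested on few regions: without the 52 regions under the Ctrl replicate 4 H3K9me3 list it was 1.53, in the opposite direction (exact permutation p = 0.0286), and without the unplaced contigs and the mitochondrial genome −0.17 (exact permutation p = 0.314). Both were computed after the data were seen. Over all H3K4me3 regions, 25.4% had a peak in all 4 FGR and no Ctrl list, and within shared regions 34.4%. The reverse held for 0.0218% overall and for 2.48% within shared regions, which is 9 of the 12 such H3K4me3 regions.

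H3K27ac, the mark of active enhancers, was about as rare, with a peak in 0.904%, 0.889%, 0.996% and 1.01% of shared regions in Ctrl and 1.12%, 1.21%, 1.13% and 1.40% in FGR. Its log2 density was −2.24 ± 0.22 in Ctrl and −1.29 ± 0.43 in FGR (SD, n = 4 each), a difference of 0.95 (exact permutation p = 0.0286), with all 4 FGR values above all Ctrl values. Before division by genome coverage the groups overlapped. Peaks covered 0.453%, 0.448%, 0.496% and 0.606% of the shared bases in Ctrl and 0.458%, 0.532%, 0.464% and 0.7% in FGR. They covered 2.3% to 2.4% of the genome in Ctrl and 1.1% to 1.43% in FGR. The density thus rested on 58 to 91 shared regions per library. Regions with H3K27ac in all 4 FGR and no Ctrl list were 0.163% of all and 6.91% of those in shared regions, and the reverse 1.23% and 1.63%. In all, 2291 shared regions (35.1%) had no peak of the 3 other marks in any of the 24 lists, and 11 had one in all 24.

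Genes whose bodies overlap shared regions were examined near their starts, as kb of peaks within 2.5 kb, with limma and Benjamini-Hochberg adjustment over all coding genes tested. Where the strand was unknown, as for Gm40365, Adgre1, Soga1 and Tbc1d30 below, the windows at both gene ends were counted together. Values of such genes cannot be assigned to the start. A gene was tested if at least 2 libraries had a peak there, so counts cover the tested genes and not all 1012. For H3K9ac, 621 were tested, and 171 (27.5%) were higher and 200 (32.2%) lower in FGR, against 25.9% and 35.3% of all 15000 genes tested. For H3K4me3, 520 of 554 (93.9%) were higher, against 95.8% of all genes, and 0 were lower, against 0.00739% (at an unadjusted p under 0.05 the limma count was also 0). For H3K27ac, 301 of 394 (76.4%) were lower, against 82.4%, and 0 were higher, against 0.134% (1 at an unadjusted p under 0.05 in limma). All these shares were near those of all genes. Quantile normalization between libraries turned the split for H3K4me3 to 64 higher and 162 lower, with 15.4% and 24.2% of all genes, and that for H3K27ac to 60 higher and 24 lower, with 12.2% and 10.8%.

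Among the H3K9ac genes, Vmn1r48, a vomeronasal receptor gene, had 0 kb in all 4 Ctrl libraries and 1.53, 1.41, 1.46 and 1.53 kb in FGR. With a window of 1 kb the difference was 0.013 kb. LOC100504180, a predicted gene beside Duxf3 that lies wholly under a shared region, had 0 kb in each Ctrl library and 1.42, 1.63, 1.64 and 1.72 kb in the FGR ones. Gm52236 had 0 kb in each Ctrl library and 2.56, 2.90, 3.03 and 3.63 kb in the FGR ones, and Gm40365 2.49, 2.58, 2.38 and 3.304 kb, with 7.74, 8.15, 7.32 and 8.29 kb in FGR. Vmn1r48, LOC100504180 and Gm52236 entered the test only through the FGR libraries, in which they are high, so no p is given for them or for other genes below at 0 kb in all Ctrl libraries.

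The 4 genes with the smallest p among those lower in H3K9ac were Ugt1a7c, Lgmn, Adgre1 and Arsb. Adgre1, the macrophage surface protein F4/80, had 1.99, 2.03, 2.09 and 1.89 kb in Ctrl and 0.515, 0.627, 0.397 and 0.502 kb in FGR (limma adjusted p = 2.75e-06), with 0.371% of its body under a shared region. Lgmn, a lysosomal protease, had 5.001, 5.001, 4.732 and 5.001 kb in Ctrl and 2.97, 2.79, 3.09 and 2.84 kb in FGR (limma adjusted p = 1.5e-06). As 5.001 kb is the whole window, higher Ctrl values could not be seen. Arsb, a lysosomal sulfatase, had 2.63, 2.79, 2.86 and 2.67 kb against 1.287, 1.115, 1.298 and 1.121 kb. Ugt1a7c had 3.75, 3.83, 3.75 and 3.68 kb of H3K9ac in Ctrl and 0.971, 0.357, 0.728 and 0.813 kb in FGR.

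For Ugt1a7c, H3K4me3 went the other way, with 1.18, 1.01, 1.07 and 0.955 kb in Ctrl and 3.96, 3.88, 3.98 and 3.98 kb in FGR (limma adjusted p = 1.54e-07). Upp2, a uridine phosphorylase, had 0.844, 0.807, 0.629 and 0.548 kb of H3K4me3 against 3.18, 3.45, 3.42 and 3.33 kb. Diaph2 and Tmem267 had 0 kb in Ctrl and 2.01 to 2.26 kb and 1.49 to 1.56 kb in FGR. H3K27ac was lower at Soga1, with 8.21, 8.01, 8.22 and 8.12 kb in Ctrl and 4.17, 3.87, 3.88 and 3.85 kb in FGR (limma adjusted p = 2.03e-08). At Abr, a GTPase regulator, it was 1.07, 1.18, 1.23 and 1.24 kb in the Ctrl libraries and 0 kb in those of FGR, and Dcaf5 and Uxs1 were also lower. No gene under a shared region passed the test as higher in H3K27ac. The 4 nearest to it were Bckdhb, Tbc1d30, Gm40365 and Wdr63. Bckdhb had 0 kb in Ctrl and 0.152, 0.491, 0.149 and 0.151 kb in FGR. Bckdhb, Tbc1d30 and Wdr63 had 0 kb in all Ctrl libraries and entered the test only through FGR libraries, so their rank is no support. With quantile normalization Gm40365 passed as higher (limma adjusted p = 0.0122), and Dcaf5 no longer passed as lower (0.0912).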

How the data were processed

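H3K9me3 and 3 other histone marks were measured in hippocampal microglia of Ctrl and FGR mice. The submitters' processing notes name the mm10 build, MACS2 2.2.7.1, Bowtie2 2.4.5, Trim Galore 0.6.5, DiffBind 3.12.0 and SAMtools 1.3.1, without options or order. The 32 deposited lists, 1 per library, are broad for H3K9me3 replicates 1 to 3 and narrow otherwise. For each peak the authors deposited a fold enrichment (a ratio), its −log10 q-value and its −log10 p-value. The deposited score was not used. They served only to describe or rank peaks within a list. Peak names inside some replicate 4 lists carry another number than the label, and the label was followed. The input of each group was not analysed here.

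The members and gene lists were chosen with earlier results of these data known. Overlap needed 1 base. Genome length, 2727 Mb, was the largest coordinate per sequence. Genes came from a RefSeq table of GRCm38.p6. Strand was known for 79.9% of 21887 coding genes, and both ends were used for the others. Density in shared regions was the share of their bases under peaks divided by the share of the genome, compared on a log2 scale by two-sided exact permutation over libraries. Kb near gene starts were compared with limma 3.58.1 in R 4.3.3, with a threshold of 0.05 after Benjamini-Hochberg adjustment. On simulated data with 200 genes changed by 1 kb, the fit was tested before use. Other steps used Python 3.11.15. Named regions were the 10 longest, the 5 strongest and 5 on each side of the rule. Named genes were the 10 with the largest covered share, up to 4 per family or list, and the 4 with the smallest p per mark and direction. Alternatives were a −log10 q of at least 2, equal list lengths, quantile normalization, a 1 kb window, a looser filter, other member rules, a replicate block and each library left out.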

Additional observations from a re-analysis of the deposited data

Results flagged for a closer look

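In 7 of 52 groups of 4 libraries checked, 1 library lay far from the other 3 by Dixon's criterion. For normally spread values about 1 in 20 groups would be marked by chance. That rate does not apply here. Some groups, such as Ctrl H3K4me3 at Diaph2, were at 0 kb throughout and could not be marked, and the genes were chosen by p. Of the Ctrl libraries, replicate 4 had the highest log2 density of H3K9ac in the shared regions, −2.77, and of the FGR libraries, replicate 4 had the highest log2 density of H3K27ac, −0.65, where the others lay between −1.55 and −1.43. Without FGR replicate 4 the H3K27ac difference was 0.74 in place of 0.95. At single genes, Ctrl replicate 3 had 4.73 kb of H3K9ac at Lgmn. The other Ctrl libraries had 5.001 kb there, which is the whole window and the highest possible value. For H3K27ac in FGR, replicate 2 had 0.491 kb at Bckdhb and 0 kb at Wdr63, and replicate 1 had 4.17 kb at Soga1 and 1.24 kb at Dcaf5. The causes were not tested.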

How the results depend on the processing

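The number of shared regions depended on the rule. It was 1014 when only FGR peaks with a −log10 q of at least 2 were merged and 2800 when each list had to cover at least 50% of a region, and 7969 to 9433 when 1 of the 3 lists was left out. The H3K9ac density difference kept its direction under each alternative, from 5.34 with the 1014 regions to 7.099 without the 52 regions under the Ctrl narrow H3K9me3 list. With 1 library left out it was 6.59 to 6.89, that of H3K4me3 −0.85 to −0.66 and that of H3K27ac 0.74 to 1.05, all at an exact permutation p = 0.0571, the smallest that 3 against 4 allows. With a replicate block, an exact sign-flip permutation test over 4 pairs, the differences were 6.78, −0.77 and 0.95 at p = 0.125, the smallest possible. Libraries of the same number showed little joint deviation (r of −0.0182 to 0.0164), which cannot decide whether the numbers pair the samples. No label says that they do. The H3K4me3 density difference was −0.17 without the unplaced contigs and the mitochondrial genome and 1.53 without the 52 regions.

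Of genes under shared regions, quantile normalization gave 64 higher and 162 lower for H3K4me3 and 60 higher and 24 lower for H3K27ac. Equal list lengths gave 2 lower for H3K4me3. With the 1014 regions, fewer genes entered, and 105 were higher for H3K4me3, 35 higher and 41 lower for H3K9ac, and 50 lower for H3K27ac. This used the main fit, in which 95.8% of all genes tested were higher for H3K4me3 and 82.4% lower for H3K27ac. For H3K9ac, 25.9% of all genes tested were higher and 35.3% lower. Except for quantile normalization, shares over all genes under the other alternatives are not given here. These counts are no result about the genes under shared regions. For H3K27ac, 1 gene was higher with a 1 kb window, with a peak asked in 1 library, and with the replicate block. With the window and the looser filter this gene was Bckdhb, which had 0 kb in all Ctrl libraries, so its call is no support. Leaving out 1 library gave 500 to 516 higher and 0 lower for H3K4me3, 145 to 166 higher and 181 to 202 lower for H3K9ac, and 0 higher and 269 to 294 lower for H3K27ac. Depth is unknown, and the threshold of each list limits what could be called.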
